A study of Mus musculus with 12 samples.

Results

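The core genes of the Hippo pathway were followed by symbol through a table of RNA-seq read counts from mouse liver: Yap1 and Wwtr1, which encode the coactivators YAP and TAZ, the kinase genes Lats1 and Lats2, the DNA-binding factors Tead1, Tead2, Tead3 and Tead4, the TEAD cofactor Vgll4 and the upstream activator Nf2. They are 10 of the 41128 genes in the table, each has 1 row, and all 10 passed the filter on low counts. Of the 12 libraries, 6 were made from hepatocytes purified on a Percoll density gradient, 3 from untreated mice and 3 labelled peritumoral, from liver around tumours, and all 6 carry the alleles Lats1tm1.1Jfm/RjoJ and Lats2tm1.1Jfm/RjoJ. These are conditional (floxed) alleles, the titles call the animals wild type, and the labels do not say whether a Cre recombinase was present. The tumours had been started by hydrodynamic injection, which drives plasmid DNA into hepatocytes, with 1 µg of SB11 (a transposase), 20 µg of myc-NICD (the active part of Notch) and 4 µg of myr-ha-Akt, and had grown for 8 weeks. The other 6 came from CD-1 IGS mice: 2 controls, 2 taken 24 h and 2 taken 48 h after a single intraperitoneal dose of thioacetamide (TAA), a toxin of hepatocytes. The labels describe these 6 as purified hepatocytes as well, while the series design calls them livers, and they are called livers here. An age of 8 weeks is given for every library, which for the tumour-bearing mice is also the age at injection. With 8 weeks of tumour growth after it, those mice would be older at sampling than the untreated ones. Age, injection and tumours cannot be told apart in that comparison. The labels do not tie the libraries of a group to separate animals, and p-values here refer to the spread between libraries alone, part of which may be technical.

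The Hippo pathway is a kinase cascade that limits organ size. Merlin, the Nf2 product, helps bring LATS kinases to the membrane, where they are activated, and LATS1 and LATS2 phosphorylate YAP and TAZ, which are then kept in the cytoplasm or degraded. Unphosphorylated YAP and TAZ enter the nucleus, have no DNA-binding domain of their own, and switch on genes through the TEAD proteins, while VGLL4 competes with them for TEAD. In mouse liver the cascade restrains hepatocyte and bile duct growth, and bile duct cells are known to hold more YAP protein than hepatocytes. Much of this control acts on phosphorylation and protein location, which transcript counts do not measure.

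TEAD proteins bind the letters GGAATG, which read CATTCC on the opposite strand, and the 250 bases before the start sites of the members were searched for them on both strands. RefSeq start sites on GRCm38.p6 were given for 8 of the 10 members, with none for Tead1 and Tead4. The letters were found at 4 of these 8 genes (Yap1, Wwtr1, Tead3 and Vgll4), against 14.4% of 27025 genes with such windows. By window the counts were 6 of 13 member windows, or 46.2%, some of which overlap, against 12.6% of 32851. Member windows were also richer in G and C, with a median of 67.6% against 52.4% of all windows. Windows with no exonic base are shown for the gene pair whose transcripts parted in these data, Yap1 and Wwtr1, and for Vgll4, which fell after TAA. Each lies on the minus strand, is printed 5′ to 3′ toward the start site, and has the match in capitals.
Yap1, chr9:8004597-8004846, match beginning 141 bases before the start: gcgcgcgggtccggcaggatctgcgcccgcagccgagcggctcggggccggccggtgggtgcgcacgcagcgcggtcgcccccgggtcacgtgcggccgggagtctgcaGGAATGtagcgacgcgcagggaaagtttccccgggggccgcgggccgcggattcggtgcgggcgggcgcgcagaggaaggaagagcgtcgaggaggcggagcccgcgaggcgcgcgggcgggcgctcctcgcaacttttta
Wwtr1, chr3:57575911-57576160, match beginning 136 bases before the start: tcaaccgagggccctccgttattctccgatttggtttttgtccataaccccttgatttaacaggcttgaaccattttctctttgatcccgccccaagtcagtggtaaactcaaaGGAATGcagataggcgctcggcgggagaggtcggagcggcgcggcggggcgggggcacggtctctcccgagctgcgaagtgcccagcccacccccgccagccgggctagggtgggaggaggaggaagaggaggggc
Vgll4, chr6:114969204-114969453, match beginning 82 bases before the start: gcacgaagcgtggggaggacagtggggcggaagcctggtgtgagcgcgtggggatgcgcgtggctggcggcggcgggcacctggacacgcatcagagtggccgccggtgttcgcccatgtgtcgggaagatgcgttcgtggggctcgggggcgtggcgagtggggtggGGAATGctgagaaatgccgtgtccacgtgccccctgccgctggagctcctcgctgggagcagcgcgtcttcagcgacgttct
The Yap1 and Wwtr1 windows lie directly outside the 5′ ends of the annotated genes, and the Vgll4 window lies within the annotated gene, before a start site downstream of the outermost one. Bases after the Yap1 and Wwtr1 starts were found in a GENCODE M21 transcript on the sense strand, and those after the Vgll4 start were not, so the latter start rests on RefSeq alone. A match to 6 letters is a description of the window and not evidence of binding.

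The hepatocyte libraries held 16228747 to 18522324 counts each, and the liver libraries 9640845 to 13692235. Levels are TMM-scaled CPM, counts relative to the depth of the library, and 3 counts, taken as the limit of detection, correspond to 0.124 to 0.309 CPM. The labelled cell type was checked on 8 hepatocyte markers, none of which was at 0 in every library of a group. Their summed level ran from 93134 to 124964 CPM in untreated hepatocytes, 60735 to 146480 in peritumoral hepatocytes, 235982 to 243610 in control livers, 133507 to 143062 at 24 h and 96759 to 107081 at 48 h. Alb was most of this sum in hepatocytes, with means of 73486 CPM in untreated and 86827 CPM in peritumoral ones. The median log2 fold change of the 8 markers was -0.61 around tumours. There edgeR called none at an adjusted p under 0.05 (10.2% of all genes were lower), and DESeq2 called 3 (21.6% of all genes higher, 13.1% lower). At 24 h and 48 h the median was -0.92 and -0.87, and 3 of 8 were called lower each time (20.5% and 23.9% of all genes). Markers of other liver cells were present as well and higher in the treated groups. The summed level of 8 bile duct markers was 53.4 to 94.2 CPM in untreated and 807 to 8000 CPM in peritumoral hepatocytes, and 96.3 to 109, 155 to 169 and 188 to 271 CPM in control, 24 h and 48 h livers. The sum of 9 stellate cell and fibroblast markers was 60.7 to 113 CPM in untreated and 728 to 1880 CPM in peritumoral hepatocytes, and 108 to 172, 414 to 433 and 1178 to 1745 CPM in the 3 liver groups. Endothelial markers (8 genes) summed to 191 to 252 and 756 to 1428 CPM in the hepatocytes and to 168 to 199, 282 to 377 and 298 to 385 CPM in the livers. Macrophage markers (8 genes) summed to 196 to 311 and 1172 to 3359 CPM in the hepatocytes and to 77.7 to 160, 288 to 366 and 519 to 809 CPM in the livers. No gene of these 4 lists was at 0 in every library of a group. Control livers had higher hepatocyte and lower macrophage sums than untreated hepatocytes, each on the scale of its own fit. Which description of their preparation holds was not tested. Peritumoral replicate 2 stood apart from its group, with the 8000 CPM of bile duct markers and the 60735 CPM of hepatocyte markers. In bulk RNA, more cells of a type and more RNA per cell cannot be told apart. The part of these cells, or of any tumour cells present, in the results on the Hippo genes was not tested.

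Around tumours the 2 coactivator transcripts moved in opposite directions. Yap1 was lower and Wwtr1 higher in peritumoral than in untreated hepatocytes, and 2 of the 4 TEAD genes, Tead1 and Tead2, rose. In all, 3 of the 10 members rose and 1 fell at an adjusted p under 0.05 in edgeR's quasi-likelihood test, where 19.0% of all 13442 genes tested rose and 10.2% fell. By the simpler count of groups whose libraries do not overlap, 6 members were higher (25.0% of all genes) and 1 lower (24.5%). The median log2 fold change of the members was 0.36, and that of all genes -0.02. The call counts rest on few libraries. Leaving out replicate 3 of either group gave 2 called members, leaving out peritumoral replicate 2 gave 1, and leaving out either of untreated replicates 1 and 2 gave 0. Calls over all genes went from 2560 higher and 1370 lower to 1293 and 66 of 13986 without untreated replicate 1. They were 1364 and 130 of 13979 without untreated replicate 2, and 2478 and 626 of 13559 without peritumoral replicate 2. Without replicate 3 they were 2298 and 433 of 13805 (peritumoral) and 2162 and 1398 of 14025 (untreated).

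After TAA, Yap1 and both LATS kinases did not pass the test with TMM scaling, while Wwtr1 and Tead1 rose and Vgll4 and Tead3 fell. At 24 h 2 members rose (21.3% of 13497 genes did) and 2 fell (20.5%), and at 48 h 4 rose (25.0%) and 2 fell (23.9%), the additions being Tead2 and Tead4. Without 24 h replicate 1 the 24 h count was 2, and without 48 h replicate 2 the 48 h count was 3. Over all genes 1442 rose and 1379 fell of 14010 in the former refit, and 2540 rose and 2011 fell of 13839 in the latter. Groups did not overlap for 3 higher and 4 lower members at 24 h (38.3% and 35.8% of all genes) and for 5 higher and 3 lower members at 48 h (37.5% and 38.9%). The members' median log2 fold change was 0.03 at 24 h and 0.16 at 48 h, against 0.02 and -0.03 for all genes. Both TAA comparisons use the same 2 control livers. Between 48 h and 24 h none of the 10 members passed edgeR's test (7.33% of all genes did) or DESeq2's, and 1, Tead4, had an unadjusted p under 0.05 (27.5% of all genes).

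**Figure D1:**
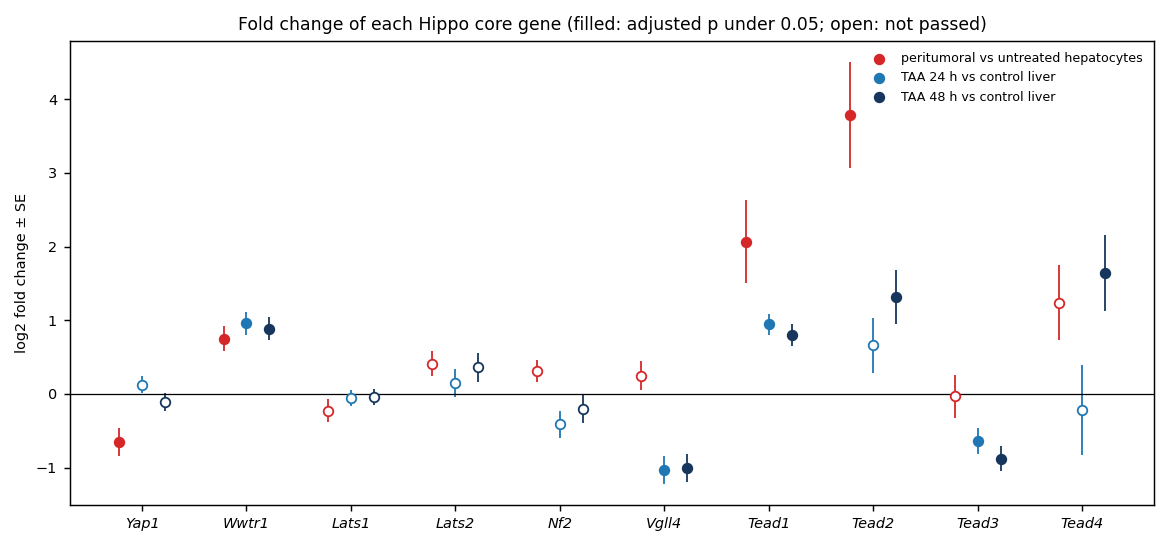
Log2 fold change (y axis) of each member with its standard error, from edgeR fits over all genes, for peritumoral against untreated hepatocytes and for livers 24 h and 48 h after TAA against control livers. Wwtr1 and Tead1 lie above 0 in all 3 comparisons, Vgll4 lies below 0 only after TAA, and Tead2 reaches 3.79 in peritumoral hepatocytes.

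Yap1 encodes YAP, the better known of the coactivators. Its level in untreated hepatocytes was 109, 113 and 96.6 CPM in replicates 1 to 3, and in peritumoral hepatocytes 83.4, 54.6 and 64.6 CPM. All 3 peritumoral libraries lay below all 3 untreated ones, and replicate 2 was the lowest. The log2 fold change was -0.65 ± 0.19 (SE, adjusted p = 0.043, edgeR), or 0.636-fold. This call was lost when peritumoral replicate 2 or 3 or any of the 3 untreated libraries was left out, with log2 fold changes of -0.73 to -0.48 and adjusted p from 0.0587 to 0.184. It was also lost with each of the other scalings of library size in edgeR (adjusted p from 0.0558 to 0.224), without a count filter (0.064) and with a filter of 50 counts (0.0695), and passed in DESeq2 (adjusted p = 0.0278). Control livers had 87.4 and 96.8 CPM of Yap1, livers at 24 h 105 and 95.8 CPM, and livers at 48 h 88.1 and 82.3 CPM. These groups overlapped each other except for the 48 h and 24 h pair, and neither TAA comparison passed, with log2 fold changes of 0.12 ± 0.12 (adjusted p = 0.428) at 24 h and -0.11 ± 0.12 (adjusted p = 0.465) at 48 h. Fitted over all 12 libraries, the peritumoral change lay 0.88 ± 0.27 log2 units below the 24 h change (adjusted p = 0.0424), a call that was lost without any 1 of the 6 livers, peritumoral replicate 3 or untreated replicate 1 or 2 (adjusted p from 0.0609 to 0.154). Against the 48 h change the difference was -0.61 ± 0.27 (adjusted p = 0.144), and it passed without peritumoral replicate 1 (-0.76, adjusted p = 0.0378).

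Wwtr1 encodes TAZ, the paralog of YAP. Untreated hepatocytes held 22.4, 22.9 and 17.5 CPM, and peritumoral hepatocytes 31.6, 39.3 and 34.7 CPM. Every peritumoral library lay above every untreated one, and here replicate 2 was the highest of its group. The log2 fold change was 0.75 ± 0.17 (adjusted p = 0.0221), with adjusted p from 0.0505 to 0.0837 when peritumoral replicate 2 or 3 or untreated replicate 1 or 2 was left out. Wwtr1 stood at 17.3 and 16.7 CPM in control livers, at 31.9 and 34.4 CPM at 24 h and at 27.9 and 35.1 CPM at 48 h. All 4 TAA libraries lay above both controls. The change was 0.96 ± 0.16 at 24 h (adjusted p = 0.00413) and 0.89 ± 0.16 at 48 h (adjusted p = 0.00411), and it passed at both times in all 6 refits with 1 liver library left out. The peritumoral and TAA changes of Wwtr1 were not told apart by the test of their difference, which was -0.33 ± 0.25 against 24 h (adjusted p = 0.377) and -0.21 ± 0.25 against 48 h (adjusted p = 0.59).

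**Figure D2:**
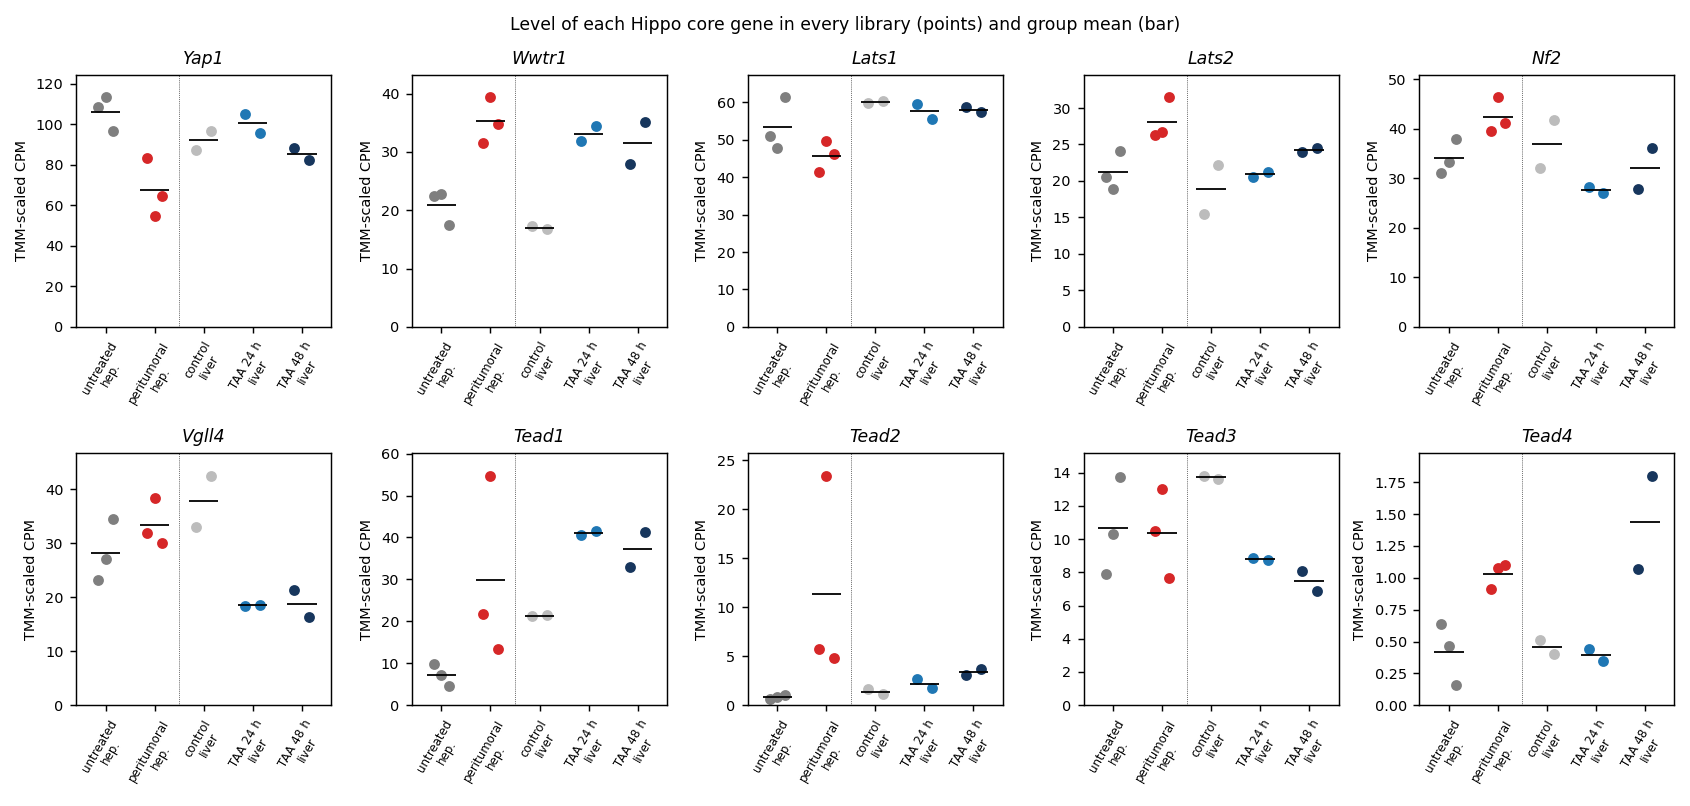
Level of each member in TMM-scaled CPM (y axis, from 0, own scale per gene) in every library of the 5 groups, scaled within each preparation, with a bar at the group mean. All 4 TAA libraries lie above both control livers for Wwtr1 and Tead1 and below both for Vgll4 and Tead3, and peritumoral replicate 2 is the highest point for Tead1 (54.7 CPM) and Tead2 (23.4 CPM).

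The 2 coactivators can also be set against each other inside each library, which needs no scaling between libraries. Per 100 reads of Yap1, untreated hepatocytes had 20.6, 20.2 and 18.2 reads of Wwtr1, and control livers 19.9 and 17.3. These 5 libraries of 2 mouse stocks span a narrow range. Peritumoral hepatocytes had 37.9, 72.0 and 53.8 reads, livers at 24 h 30.4 and 35.9, and livers at 48 h 31.7 and 42.6. Every treated library lay above every untreated one of its preparation. The ratio was 2.69-fold higher in peritumoral than in untreated hepatocytes, a log2 difference of 1.43 (two-sided exact permutation p = 0.1, n = 3 and 3). It was 1.78-fold higher at 24 h and 1.98-fold higher at 48 h than in control livers (exact permutation p = 0.333 each, n = 2 and 2). Both are the smallest p that the exact permutation test allows with these numbers of libraries, so this test cannot reach 0.05.

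**Figure D3:**
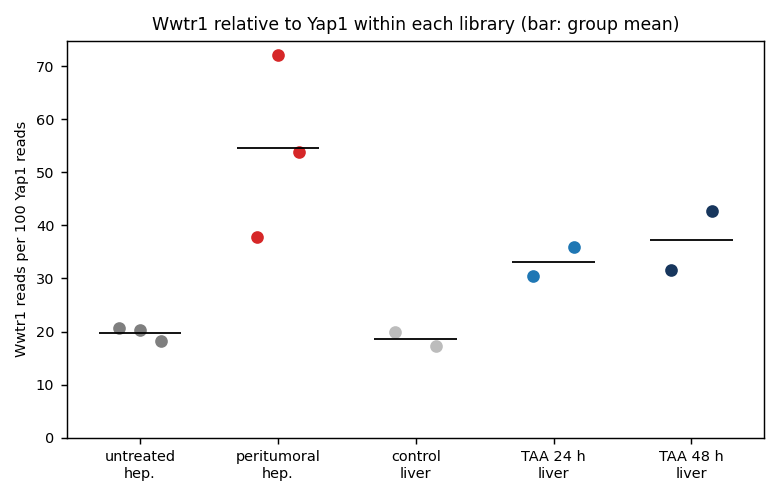
Reads of Wwtr1 per 100 reads of Yap1 (y axis) in each library of the 5 groups, with a bar at the group mean. The 5 untreated and control libraries lie between 17.3 and 20.6, and the 7 peritumoral and TAA libraries between 30.4 and 72.0.

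Per kilobase of exon, Yap1 led the members in untreated hepatocytes and in all 3 liver groups. Its mean was 11.5 ± 0.92 (SD, n = 3) CPM per kb in untreated hepatocytes and 9.95 ± 0.72 (n = 2) in control livers, against 4.38 ± 0.61 and 3.56 ± 0.09 for Wwtr1. In peritumoral hepatocytes the means were 7.29 ± 1.58 for Yap1 and 7.37 ± 0.82 for Wwtr1, which did not differ beyond their spread. That near equality depends on the length used, since with the longest annotated transcript in place of all exons the means were 12.8 and 7.50 CPM per kb. The sum of the 2 coactivators ran from 14.1 to 17.0 CPM per kb in untreated and from 14.1 to 15.6 in peritumoral hepatocytes. It was 13.1 and 13.96 CPM per kb in control livers, 18.0 and 17.5 at 24 h and 15.4 and 16.2 at 48 h.

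Lats1 and Lats2 encode the kinases that phosphorylate YAP and TAZ, and both carry the conditional alleles in the hepatocytes. Lats1 was at 51.1, 47.9 and 61.3 CPM in untreated and at 41.3, 49.6 and 46.1 CPM in peritumoral hepatocytes. The groups overlapped, and the log2 fold change was -0.23 ± 0.16 (adjusted p = 0.318). In livers Lats1 lay between 55.6 and 60.2 CPM, at 59.8 and 60.2 CPM in controls, 59.6 and 55.6 at 24 h and 58.6 and 57.5 at 48 h. Its TAA changes were -0.06 ± 0.11 (adjusted p = 0.682) and -0.05 ± 0.11 (adjusted p = 0.738). Lats2 was at 20.6, 18.8 and 24.1 CPM in untreated and 26.3, 26.7 and 31.4 CPM in peritumoral hepatocytes. All peritumoral libraries were above all untreated ones, but the change of 0.41 ± 0.17 did not pass (adjusted p = 0.112). In livers Lats2 was at 15.5 and 22.3 CPM in controls, 20.6 and 21.3 at 24 h and 23.9 and 24.5 at 48 h, and neither time passed (adjusted p = 0.559 and 0.163). Without control replicate 2, the higher of the controls, the 48 h value was 0.60 (adjusted p = 0.0282).

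Lats2 made up 29.6, 29.2 and 29.2% of the summed LATS level per kb in untreated hepatocytes and 40.0, 36.1 and 41.6% in peritumoral ones. In livers the share was 21.3 and 27.9% in controls, 26.5 and 28.6% at 24 h and 29.9 and 30.8% at 48 h. Of the Lats2 exon length, 42.4% is also annotated to a gene model on the same strand, Gm49361, which has no row in the count table, so its reads may have been counted to Lats2 or to neither. Transcripts of both kinases were present in all 12 libraries, from 41.3 CPM upward for Lats1 and 15.5 CPM upward for Lats2. Whether counts over whole genes would register a deleted exon was not tested.

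Of the TEAD genes, Tead1, Tead2 and Tead4 had the widest ranges of any member over the 5 group means, and Tead3 did not. Tead1, the most widely expressed of the family, was at 9.88, 7.09 and 4.48 CPM in untreated hepatocytes and at 21.8, 54.7 and 13.3 CPM in peritumoral ones. The groups did not overlap, and replicate 2 of the peritumoral group was far above the other two. The change was 2.06 ± 0.56 (adjusted p = 0.0354), it fell to 1.32 without peritumoral replicate 2, and it did not pass without that library or without any 1 of the 3 untreated ones (adjusted p from 0.0595 to 0.112). Control livers had 21.2 and 21.5 CPM of Tead1, livers at 24 h 40.5 and 41.6 CPM and livers at 48 h 33.1 and 41.3 CPM. All 4 TAA libraries lay above both controls. The rises of 0.94 ± 0.15 at 24 h (adjusted p = 0.00348) and 0.80 ± 0.15 at 48 h (adjusted p = 0.00476) passed in all 6 refits without 1 liver library. They did not pass when all 12 libraries shared 1 estimate of the spread (adjusted p = 0.18 and 0.243). Control livers held more Tead1 than untreated hepatocytes, with 21.3 against 6.87 CPM on a scale common to all 12 libraries. Stock and any difference in preparation cannot be told apart there.

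Tead2 is the family member best known from embryonic tissue. Its counts in untreated hepatocytes were 11, 14 and 13 (0.635, 0.814 and 1.02 CPM), and in peritumoral hepatocytes 95, 565 and 83 (5.76, 23.4 and 4.80 CPM). The lowest peritumoral library was thus above the highest untreated one, and replicate 2 was again the highest. The log2 fold change was 3.79 ± 0.72 (adjusted p = 0.0119), the largest of any member in any of the 3 comparisons with an untreated group. Without peritumoral replicate 2 it was 2.73 and still passed, and without untreated replicate 1 or 2 the adjusted p was 0.0536 to 0.0569. In livers the counts were 16 and 11 in controls, 36 and 25 at 24 h and 38 and 56 at 48 h, or 1.65 and 1.103, 2.64 and 1.72, and 3.13 and 3.74 CPM. The change was 0.66 ± 0.38 at 24 h (adjusted p = 0.198) and 1.32 ± 0.37 at 48 h (adjusted p = 0.024). The 48 h call was lost without either 48 h library or without control replicate 2 (adjusted p from 0.0598 to 0.12) and in the fit of all 12 libraries (adjusted p = 0.175). The peritumoral change exceeded the 24 h change by 3.003 ± 0.96 (adjusted p = 0.0509) and the 48 h change by 2.38 ± 0.95 (adjusted p = 0.113), neither of which passed. The former passed without any 1 of the peritumoral libraries (adjusted p from 0.0186 to 0.0356) and in DESeq2 (adjusted p = 0.0106). In edgeR it also passed with RLE scaling (0.0486), a filter of 50 counts (0.0449), a replicate block (0.0457) and the older form of the fit (0.047). It did not pass with upper-quartile scaling, library totals alone or no count filter (adjusted p up to 0.095).

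**Figure D4:**
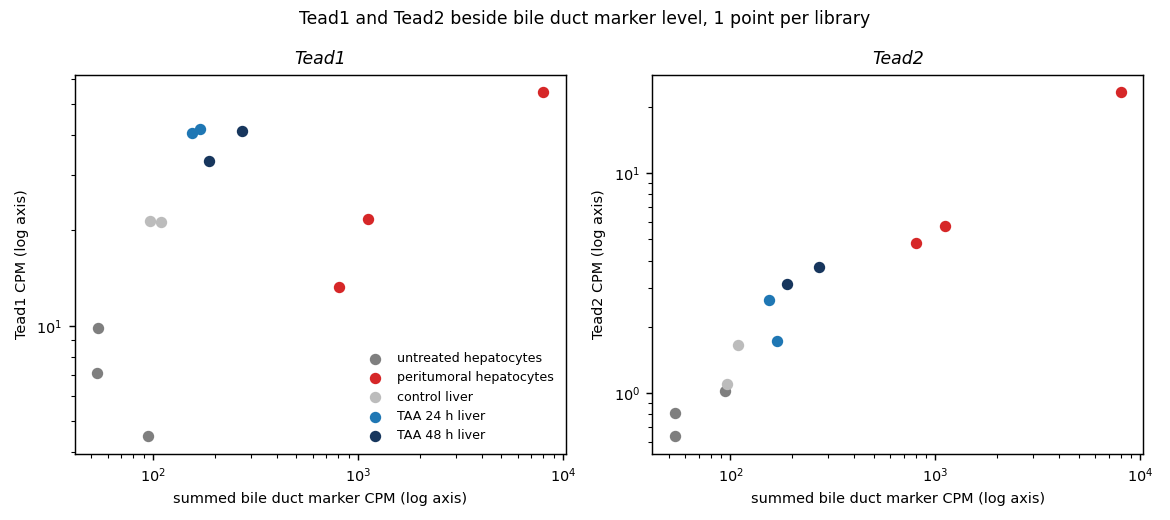
Level of Tead1 (left) and Tead2 (right) in CPM on a log axis against the summed level of 8 bile duct markers in CPM on a log axis, with 1 point per library of the 5 groups. The peritumoral libraries hold the 3 highest levels of bile duct markers and the 3 highest of Tead2, while for Tead1 the 4 TAA libraries lie above 2 of the 3 peritumoral ones.

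Bile duct markers were higher in the peritumoral libraries along with Tead2, as were the stellate cell, endothelial and macrophage sums. Of the 8 markers 6 rose in peritumoral hepatocytes, and Krt19, a keratin of bile ducts, averaged 31.7 ± 27.5 CPM there against 0.685 ± 0.310 CPM in untreated ones (SD, n = 3 each). Peritumoral replicate 2 had the highest bile duct sum, the highest Tead1 and Tead2 and the lowest Yap1 of the hepatocyte libraries. Spp1, a secreted matrix protein, made up 87.7 to 91.9% of the bile duct sum in the peritumoral libraries. Without it the sums of replicates 1 to 3 were 137, 645 and 89.8 CPM, against 32.7 to 58.5 CPM in untreated hepatocytes and 61.8 to 92.3 CPM over the livers. Within the peritumoral group Tead1, at 13.3, 21.8 and 54.7 CPM, had the same order as the full sum, at 807, 1117 and 8000 CPM. Tead2, at 4.80, 5.76 and 23.4 CPM, had that order there too. Tead2 also followed the sum within the control and 48 h pairs. Within the 24 h pair Tead2 had the opposite order, with 2.64 CPM at a sum of 155 and 1.72 CPM at 169. Tead1 followed the sum within both TAA pairs but not within the control pair, with 21.2 CPM at 109 and 21.5 CPM at 96.3. The untreated library with the highest sum, 94.2 CPM, had the lowest Tead1 and the highest Tead2 of its group. The part of bile duct cells, of the other cell types or of any tumour cells present in either result was not tested.

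Tead3 fell after TAA and did not pass the test around tumours. It was at 13.8 and 13.6 CPM in control livers, 8.89 and 8.74 at 24 h and 8.08 and 6.87 at 48 h. All 4 TAA libraries lay below both controls. The change was -0.64 ± 0.17 at 24 h (adjusted p = 0.026) and -0.88 ± 0.17 at 48 h (adjusted p = 0.00666). At 24 h it was lost without either 24 h or either control library (adjusted p from 0.0596 to 0.116), at 48 h without 48 h replicate 2 (adjusted p = 0.0528), and at both times in the fit of all 12 libraries (adjusted p = 0.19 and 0.0526). In hepatocytes Tead3 ranged over 7.91, 10.3 and 13.8 CPM without and 10.5, 13.02 and 7.69 CPM with tumours, overlapping groups with a change of -0.03 ± 0.29 (adjusted p = 0.945).

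Tead4 had the lowest mean CPM of the members in each of the 5 groups, with Tead2 at the same count in untreated replicate 1. Its counts were 11, 8 and 2 in untreated and 15, 26 and 19 in peritumoral hepatocytes, and 5 and 4 in control livers, 6 and 5 at 24 h and 13 and 27 at 48 h. The 2 counts of untreated replicate 3 lie under the 3-count limit of detection. Both 48 h libraries were above all others of the liver set, and the change at 48 h was 1.64 ± 0.51 (adjusted p = 0.0362, edgeR), but DESeq2 gave an adjusted p of 0.123, and the edgeR call was lost in 5 of 6 refits without 1 library (adjusted p from 0.063 to 0.202), all but the one without 48 h replicate 1. From 24 h to 48 h it changed by 1.87 ± 0.49 (unadjusted p = 0.00756, adjusted p = 0.0711). In peritumoral hepatocytes the change of 1.24 ± 0.51 did not pass (adjusted p = 0.112).

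Since the 4 TEAD proteins recognise the same site, their transcripts were also expressed as shares of the summed TEAD level per kb of exon. In untreated hepatocytes Tead3 made up 53.2, 65.1 and 77.7% and in control livers 50.1 and 51.4%, so it was the largest share in each of these 5 libraries. In all 4 TAA livers Tead1 was the largest, with 59.9 and 63.6% at 24 h and 53.1 and 56.9% at 48 h against 38.1 and 40.0% in controls. In peritumoral hepatocytes Tead2 rose from 5.99, 7.22 and 8.10% to 26.0, 43.8 and 29.2%, and Tead1, Tead2 and Tead3 averaged 33.1 ± 4.02, 33.0 ± 9.50 and 28.2 ± 9.36% (SD, n = 3). Shares of 1 library sum to 100%, so a rise of 1 gene lowers the others. The summed TEAD level itself was 2.22, 2.35 and 2.64 CPM per kb in untreated and 4.62, 11.2 and 3.43 in peritumoral hepatocytes, and 4.11 and 3.95 in control livers, 4.98 and 4.82 at 24 h and 4.59 and 5.35 at 48 h. Measured on the longest transcript, Tead1 was 32.1% in control livers, 55.3% at 24 h and 50.4% at 48 h, and in peritumoral hepatocytes Tead3 rather than Tead1 had the largest mean share (35.6 against 29.5%).

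**Figure D5:**
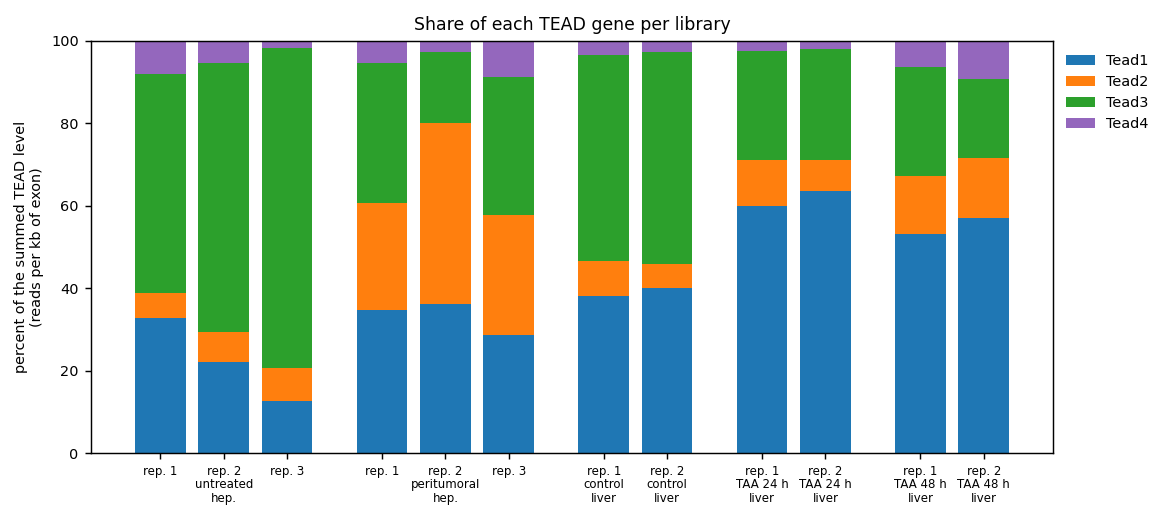
Share of each TEAD gene in the summed TEAD level per kb of exon (y axis, percent) in each of the 12 libraries. Tead3 fills 50.1 to 77.7% of the untreated and control bars, Tead1 fills 53.1 to 63.6% of the TAA bars, and Tead2 fills 26.0 to 43.8% of the peritumoral bars.

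Vgll4, whose product competes with YAP and TAZ for TEAD, fell after TAA. Control livers held 33.0 and 42.5 CPM, livers at 24 h 18.4 and 18.6 CPM and livers at 48 h 21.3 and 16.3 CPM. All 4 TAA libraries lay below both controls, by about the same margin at both times. The log2 fold change was -1.03 ± 0.19 at 24 h (adjusted p = 0.00676) and -1.01 ± 0.19 at 48 h (adjusted p = 0.00546). The 48 h call held in all 6 refits, and the 24 h call in 5 of 6, with an adjusted p of 0.0513 without 24 h replicate 1. In hepatocytes Vgll4 was at 23.1, 27.0 and 34.5 CPM in untreated and 31.9, 38.3 and 30.0 CPM in peritumoral libraries, overlapping groups with a change of 0.25 ± 0.20 (adjusted p = 0.389).

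Vgll4 was the 1 member that passed the test of a difference between the peritumoral and the TAA response at both times. The peritumoral change was 1.17 ± 0.27 log2 units above the 24 h change (adjusted p = 0.0169) and 1.18 ± 0.27 above the 48 h change (adjusted p = 0.0224). Of the 10 members, 1 had a higher and 1 a lower response against 24 h (9.03% and 12.1% of 14615 genes), and 1 a higher and none a lower response against 48 h (6.71% and 8.57%). At an unadjusted p under 0.05, 4 and 3 members passed (37.1% and 33.0% of all genes), and DESeq2 called 4 and 1 (27.7% and 22.4%). Left-out libraries ended the Vgll4 call 4 times in 12 against 24 h (untreated replicate 2, either 24 h library and control replicate 2, adjusted p from 0.0507 to 0.0772). Against 48 h they ended it 6 times in 12 (untreated replicates 1 and 2, both 48 h and both control libraries, adjusted p from 0.0542 to 0.116). With library totals alone both Vgll4 calls were lost, at 1.04 (adjusted p = 0.0704) and 0.82 (adjusted p = 0.134). Stock differs along with the injury, as does preparation by the series design, and their parts cannot be told apart.

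Nf2 encodes Merlin, a membrane-linked tumour suppressor. It was at 31.1, 33.2 and 37.8 CPM in untreated and 39.5, 46.3 and 41.2 CPM in peritumoral hepatocytes. The groups did not overlap, and the change of 0.32 ± 0.15 did not pass (adjusted p = 0.158). In livers it was at 32.0 and 41.7 CPM in controls, 28.2 and 27.1 at 24 h and 27.8 and 36.2 at 48 h. Neither time passed, with -0.41 ± 0.19 (adjusted p = 0.118) and -0.20 ± 0.19 (adjusted p = 0.402).

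The groups were also ordered on 1 scale common to all 12 libraries, as mean CPM. Yap1 ran from 109 in 24 h livers through 101 in untreated hepatocytes, 92.0 in control livers and 90.0 in 48 h livers to 64.8 in peritumoral hepatocytes, and of these neighbours the last pair alone did not overlap. Wwtr1 ran from 35.9 in 24 h livers, 33.7 in peritumoral hepatocytes and 33.2 in 48 h livers to 20.0 in untreated hepatocytes and 17.0 in control livers, with the only gap between 48 h livers and untreated hepatocytes. The 3 treated groups thus shared the upper end for Wwtr1. Vgll4 ran from 37.7 in control livers, 31.9 in peritumoral and 26.7 in untreated hepatocytes to 20.1 in 24 h and 19.9 in 48 h livers, with the only gap above the TAA livers. Tead2 ran from 10.7 in peritumoral hepatocytes through 3.63, 2.37 and 1.38 in 48 h, 24 h and control livers to 0.780 in untreated hepatocytes, and no neighbours overlapped.

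Compared as profiles over the 5 group means of log2 CPM, each centred on its own mean, the nearest members were Yap1 and Lats1, with a root mean square difference of 0.172 log2 units. Tead3 and Vgll4 followed at 0.206 and Lats2 and Nf2 at 0.214, and the farthest pair was Yap1 and Tead2 at 1.33. Yap1 and Wwtr1 were 0.568 apart. Among the 9823 genes that averaged 5 CPM or more, the nearest to Yap1 were Edem3 (0.022), Ogfod1 (0.035) and Tmem41b (0.038), where the median gene lay 0.373 away. Nearest to Wwtr1 were Cdc42se1 (0.078), Rassf1 (0.079) and Rhbdf2 (0.086) against a median of 0.589, and nearest to Lats2 were Stx7 (0.021), Bicd2 (0.048) and Sufu (0.050) against 0.424. Rassf1 is itself one of the listed Hippo regulators. With 5 points per profile, such distances describe these groups only.

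Beyond the core, 62 further pathway genes in 4 lists were counted in the same fits. Around tumours 12 of 58 tested rose at an adjusted p under 0.05 in edgeR, or 20.7%, close to the 19.0% of all genes that did. None fell, where 10.2% of all genes did, and 3 were lower at an unadjusted p under 0.05. DESeq2 called 16 higher and 2 lower (21.6% and 13.1% of all genes). Of 17 upstream kinases and adaptors 2 rose, Map4k4, a kinase that can activate LATS, by 2.77 ± 0.45 (adjusted p = 0.00746) and Sav1, the scaffold of the upstream MST kinases, by 0.73 ± 0.17 (adjusted p = 0.0239). Of 23 membrane and junction regulators 8 rose, among them Wtip, an Ajuba-family protein that binds LATS, by 2.97 ± 0.31 and Amotl1, an angiomotin that binds YAP, by 2.50 ± 0.27. The other rises were 1 of 14 genes of the STRIPAK phosphatase complex, Stk26 (4.42 ± 0.84), and 1 of 4 turnover and partner genes, the kinase gene Csnk1e (1.16 ± 0.32). The median log2 fold change over the 58 genes was 0.07, against -0.02 over all genes. Of the 12 rises, 5 were left without untreated replicate 1 and 5 without untreated replicate 2. All genes called higher then numbered 1293 of 13986 and 1364 of 13979, against 2560 of 13442 in the main fit.

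After TAA 15 of 59 tested pathway genes rose and 4 fell at 24 h, or 25.4% and 6.78% against 21.3% and 20.5% of all genes. At 48 h 16 rose and 6 fell, or 27.1% and 10.2% against 25.0% and 23.9%, so the shares that rose lie near those of all genes. Membrane and junction regulators gave most of the rises, with 11 of 23 higher and 1 lower at 24 h and 12 higher and 1 lower at 48 h. Ajuba, a LIM protein that binds LATS, rose by 1.77 ± 0.17 at 24 h and 1.61 ± 0.17 at 48 h. Limd1, of the Ajuba family, fell by 0.38 on the log2 scale at 24 h, and Crb3, a polarity protein, fell by 0.81 at 48 h. Of the 17 kinases and adaptors 1 rose and 3 fell at 24 h and 2 rose and 4 fell at 48 h. Map4k4 rose at both times (0.91 ± 0.19 and 1.55 ± 0.19), while Taok3, a kinase of the TAO family, fell by 0.91 and 0.90, and Mob1b, a coactivator of LATS, by 0.66 and 0.73. In STRIPAK 1 of 14 genes rose at each time, Strn4 (0.49 ± 0.13) and Strip2 (3.01 ± 0.77), and of 5 turnover and partner genes Csnk1e and Fbxw11 rose at 24 h while at 48 h Csnk1d fell by 0.42. Vgll3, named after its values were seen because it completes the 16 rises at 48 h, was called higher there (adjusted p = 0.0465) at means of 0.869 CPM against 0.1002 CPM in controls, the latter under the limit of detection. These counts shrank with fewer libraries, to 8 to 15 called at 24 h (8 without 24 h replicate 1, and 12 without 24 h replicate 2 or without control replicate 2) and 13 to 18 at 48 h (13 without 48 h replicate 1, 14 without 48 h replicate 2). Calls over all genes shrank as well. At 24 h they were 1442 higher and 1379 lower without 24 h replicate 1. At 48 h they were 2640 and 2077 without 48 h replicate 1. Between the times none of the 59 passed in edgeR, 7 had an unadjusted p under 0.05, and DESeq2 called 1.

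More genes that YAP and TAZ switch on through TEAD rose than fell in each comparison with an untreated group, which earlier results on these data had already shown. Of 21 such targets, of which Amotl2 and Ptpn14 are also among the junction regulators, 15 of 19 tested rose around tumours (78.9%, against 19.0% of all genes). None fell there in edgeR, at an unadjusted p under 0.05 or in DESeq2. Markers of other cells rose there at similar or higher rates: bile duct 75.0%, stellate cell and fibroblast 77.8%, macrophage 87.5%, endothelial and neutrophil 100%. Of the hepatocyte markers 0% rose. The part of these other cells, or of any tumour cells present, in the rise of the targets was not tested. At 24 h 11 of 20 targets rose and 1 fell (21.3% and 20.5% of all genes did), and at 48 h 11 of 20 rose and 2 fell (25.0% and 23.9%). The targets that rose were thus 55.0% at each time. Of bile duct markers 57.1% rose at 24 h, of endothelial and macrophage markers 62.5% each and of stellate cell and fibroblast markers 77.8%. At 48 h 28.6% of bile duct, 75.0% of endothelial, 100% of macrophage and 88.9% of stellate cell and fibroblast markers rose. The part of other cells in the TAA rises was not tested either. Ctgf, a secreted matrix protein and classic target, rose by 2.59 ± 0.25, 3.16 ± 0.26 and 4.50 ± 0.27 in the 3 comparisons. Myof, a membrane repair protein, rose by 3.11 ± 0.20 and 5.60 ± 0.22 after TAA, while Nt5e, an ectoenzyme, fell by 1.58 and 1.16 there. The second fall at 48 h was that of Gadd45a, a stress response gene, by 1.57. With 1 library left out, the targets called numbered 11 to 15 around tumours, 8 to 12 at 24 h and 13 to 14 at 48 h, with 8 at 24 h without either 24 h library or without control replicate 2. Over all genes, higher calls in these refits ranged from 1293 to 2657, 1442 to 2460 and 2540 to 3156. Lower calls ranged from 66 to 1398, 1379 to 2389 and 2011 to 3141.

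Directions after TAA depend in part on the scaling. With library totals alone the median gene moved by 0.53 at 24 h and 0.68 at 48 h, and by 0.23 around tumours. The Wwtr1 and Tead1 rises were then 1.47 and 1.46 at 24 h and 1.59 and 1.51 at 48 h, above that median and still past the test. Vgll4 was then at -0.52 and -0.29 and Tead3 at -0.13 and -0.16, below the median but no longer past it, and Yap1 was at 0.64 and 0.60, now past it. Lats1 (0.45 and 0.66) and Lats2 (0.66 and 1.07) then passed as higher too, with adjusted p of 0.0167 and 0.00297 for Lats1 and 0.024 and 0.00298 for Lats2. Relative to the median gene, Lats1 lay below it at both times and Lats2 above it. Over all genes the split of higher and lower calls went from 2560 and 1370 to 2593 and 205 around tumours, from 2877 and 2767 to 6127 and 1228 at 24 h, and from 3372 and 3226 to 7661 and 971 at 48 h. With upper-quartile factors these splits were 2701 and 673, 3601 and 2133, and 3986 and 2403.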

How the data were processed

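Polyadenylated RNA was sequenced from a stranded kit, per the labels' protocols. The authors deposited raw counts per gene, which were used here; a second deposited table of the same libraries was not used. Per the submitters' processing notes, the tools include STAR and DESeq2 and the builds mm10 and GRCm38, and the sources used here do not give their roles or the strand setting of the counting. Of 41128 gene IDs, 40254 (97.9%) were found in GENCODE M21 on GRCm38, which gave positions and exon lengths. The test was edgeR's two-sided quasi-likelihood F test (version 4.0.16, R 4.3.3) with TMM factors from 0.750 to 1.31, filterByExpr at minimum counts of 10 per library and 15 in total, a prior count of 0.125, and Benjamini-Hochberg adjustment over all genes tested, with a threshold of 0.05. Hepatocytes and livers were fitted separately, since stock differs, and differences between responses in 1 fit of all 12 libraries. A standard error is the log2 fold change divided by the square root of F. Hepatocytes had a biological coefficient of variation of 0.358, and livers one of 0.188. Ratios of Wwtr1 to Yap1 used a pseudocount of 0.5. The code was tested on simulated data. Limits of detection cover counting error only.

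Titles gave each library's group and replicate number. Within all 5 groups the libraries differed beyond sampling noise (chi-square per degree of freedom from 16.9 to 232), and each counts as 1 replicate. The 10 members, the 4 pathway lists, the target list and the 7 marker lists were chosen with earlier results of these data known. Of each pathway list and comparison with an untreated group, up to 2 called genes with the smallest p in each direction are named, if the higher group averaged 1 CPM or more, and for profiles the 3 nearest genes. Not every gene that this rule names is reported here. Of the marker lists, 5 lymphocyte genes summed to at most 5.55 CPM in any library. The 5 neutrophil genes were all at 0 in control livers and summed to at most 35.5 CPM. The alternatives covered scaling (RLE, upper-quartile, library totals alone), the tool (DESeq2 1.42.0), the count filter (none, or 50 counts), a joint fit of the 12 libraries, a replicate block, the older form of the quasi-likelihood fit, a pseudocount of 5, the longest transcript as length, and each library left out. The older form, and leaving libraries out for the target genes, were chosen after seeing the data.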

Additional observations from a re-analysis of the deposited data

How the results depend on the processing

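Of 991 values recomputed for single members under the alternatives, 858 kept direction and side of the threshold. With direction kept, 71 lost a call and 18 gained one, and 44 changed sign. Some of these 44 gained a call as well, with no factors. They include Yap1 at 48 h (edgeR adjusted p = 0.00609), Lats1 at 24 h (0.0167) and 48 h (0.00297) and Nf2 at 48 h (0.0435). The causes were not tested. With no factors the members called were 2 around tumours, 1 between the TAA times and 1 for the peritumoral against the 24 h response, and the other pathway genes called were 37 (36 higher, 1 lower) at 24 h and 50 (all higher) at 48 h. The members called after TAA changed too. Vgll4 and Tead3 no longer passed, so no member was called lower at either time. Yap1, Lats1 and Lats2 passed as higher at both times, Tead2 also at 24 h (edgeR adjusted p = 0.0364) and Nf2 at 48 h (0.0435). For the peritumoral against the 24 h response, DESeq2 called 4 members and the fit without a count filter 1. The fit of all 12 libraries called 2 at 24 h and 3 at 48 h. On the longest transcript the Tead1 share was 32.1%, 55.3% and 50.4% in control, 24 h and 48 h livers.

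Sign changes concerned values that did not pass the main test. With no factors Lats1 was at 0.043 around tumours and 0.45 and 0.66 after TAA, Nf2 at 0.10 and 0.50 after TAA, Tead3 at 0.27 around tumours, Tead4 at 0.28 at 24 h, Yap1 at 0.60 at 48 h, Tead1 at 0.053 and Wwtr1 at 0.12 between the times, and Lats2 at -0.0041 for the peritumoral against the 24 h response. With upper-quartile factors Lats1 was at 0.090 and 0.12 after TAA, Tead3 at 0.095 around tumours and Yap1 at 0.053 at 48 h. In the 12-library fit Lats1 was at 0.057 and 0.031 after TAA and at -0.026 between the times, and Vgll4 at -0.015 between the times. With the filter of 50 counts Lats1 was at 0.0060 at 48 h and Tead3 at 0.051 around tumours. For the peritumoral against the 48 h response Lats2 was at 0.037 with DESeq2, 0.035 with RLE factors, 0.029 with the filter of 50 counts, 0.017 without a count filter and 0.0074 with upper-quartile factors.

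With each library left out in turn, the members called ranged from 0 to 4 around tumours, 2 to 4 at 24 h, 3 to 5 at 48 h, 0 to 3 for the peritumoral against the 24 h response and 0 to 2 against the 48 h response. The ranges over all genes for the first 3 are given with the target genes. Over all genes, higher calls ranged from 208 to 1835 against the 24 h response and from 108 to 1585 against the 48 h response. Lower calls ranged from 343 to 2478 and from 185 to 2144. Other pathway genes called ranged from 5 to 14, 8 to 15 and 13 to 18. Log2 values that changed sign ranged from -0.27 to 0.27 for Lats2 and the 48 h response, -0.079 to 0.46 for Lats2 and the 24 h response, -0.10 to 0.42 for Lats2 at 24 h, and -0.18 to 0.18 for Tead3 around tumours. Between the times they ranged from -0.071 to 0.058 for Lats1, -0.18 to 0.20 for Vgll4, -0.25 to 0.079 for Wwtr1 and -0.31 to 0.0052 for Tead1.

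Whether the replicate numbers pair the libraries cannot be settled here. In hepatocytes, deviations from the group means correlated at -0.23, 0.18 and 0.11 for same-numbered libraries. For differently numbered ones they correlated at -0.26 to 0.25. In livers same-numbered libraries correlated at 0.03, 0.03 and 0.13. With 2 libraries per group, the differently numbered ones there hold the same values with the opposite sign by construction. With the replicate block, 3 members were called around tumours, 4 at 24 h, 5 at 48 h, 0 between the times, 2 for the peritumoral against the 24 h response and 1 against the 48 h response. Yap1 around tumours (adjusted p = 0.0675), Tead4 at 48 h (0.06) and Yap1 against the 24 h response (0.0534) then missed the threshold, and Tead2 against the 24 h response passed (0.0457). Depth limits Tead4 most, at 2 to 27 counts per library.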
